A study of Mus musculus with 2 samples.

Results

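Interferon-stimulated and interferon regulatory genes of the pre-implantation mouse uterus were followed in a VEGF-normal (Dox+) and a VEGF-repressed (Dox-) library. The members were chosen by a rule on gene symbols, drawn up with earlier results of these data known. They are the interferon receptor chains, the STAT and IRF factors, the RNA sensors, and the named families of interferon-induced effectors. By this rule 65 of the 14678 genes of the deposited table were members.

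Uteri were collected at G2.5, where the day of the vaginal plug counts as G0.5, from littermate females 9 to 10 weeks old. Both libraries came from females whose VEGF alleles both carry tet operators in the promoter (VEGFtetO/tetO) and which also bear 1 copy of a transgene for the repressor tetR-Krab, driven throughout the body by the beta-actin promoter. They had been mated with VEGFtetO/tetO males. The line was bred on doxycycline chow, which releases the repressor from the VEGF promoter. The Dox+ females ate this chow, and the Dox- females were moved to regular chow some weeks before the uteri were taken. The effect of VEGF repression and that of doxycycline itself therefore cannot be told apart by this comparison. RNA of 3 uteri was pooled per condition and sequenced as 1 library, so that a difference has no replicate check and no test between conditions was possible. The words rose and fell below describe these libraries.

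Interferons are secreted cytokines that warn cells of viruses and other intracellular microbes. Type I interferons bind the IFNAR1 and IFNAR2 chains, and interferon gamma, the type II interferon, binds IFNGR1 and IFNGR2. Janus kinases then phosphorylate STAT proteins. A complex of STAT proteins with IRF9 binds interferon-stimulated response elements (ISRE), and STAT dimers bind gamma-activated sites (GAS). In the uterus of several mammals these genes respond to signals of early pregnancy, and in ruminants the conceptus itself secretes a type I interferon.

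The sequences below show short motifs that many of the members share. The windows are the 160 bases before the transcription start of 7 members, from RefSeq on GRCm38.p6, written 5′ to 3′ on the strand of the gene. Capitals mark GAAA followed by any 2 bases and another GAAA, the core of an ISRE, on either strand, and TTCNNNGAA, the core of a GAS, which reads alike on both strands. Irgm2 (chr11:58214817-58214976, plus strand), Igtp (chr11:58199396-58199555, plus strand) and Irgm1 (chr11:48871421-48871580, minus strand) are shown as GTPase genes that had higher copies in Dox- and hold a core. Ifi47, another GTPase gene with higher copies in Dox-, holds neither core in its promoter window and is not shown. Isg15 (chr4:156200819-156200978, minus strand), Bst2 (chr8:71537473-71537632, minus strand) and Ifit1 (chr19:34640729-34640888, plus strand) are shown as textbook interferon targets. Ifitm1 (chr7:140967916-140968075, plus strand), the member with the most copies, is shown because it holds neither core in this window.
Irgm2: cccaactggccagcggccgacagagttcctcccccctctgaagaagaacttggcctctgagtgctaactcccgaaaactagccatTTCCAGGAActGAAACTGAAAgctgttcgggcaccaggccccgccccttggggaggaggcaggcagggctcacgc
Igtp: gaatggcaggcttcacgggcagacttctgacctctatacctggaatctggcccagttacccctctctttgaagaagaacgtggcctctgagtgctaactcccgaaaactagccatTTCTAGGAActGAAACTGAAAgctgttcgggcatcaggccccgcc
Irgm1: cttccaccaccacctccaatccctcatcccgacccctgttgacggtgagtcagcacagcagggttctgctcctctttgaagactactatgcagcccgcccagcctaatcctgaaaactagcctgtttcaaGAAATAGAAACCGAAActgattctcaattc
Isg15: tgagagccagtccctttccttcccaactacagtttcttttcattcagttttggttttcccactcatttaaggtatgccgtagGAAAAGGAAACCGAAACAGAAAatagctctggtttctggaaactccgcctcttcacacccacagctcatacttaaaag
Bst2: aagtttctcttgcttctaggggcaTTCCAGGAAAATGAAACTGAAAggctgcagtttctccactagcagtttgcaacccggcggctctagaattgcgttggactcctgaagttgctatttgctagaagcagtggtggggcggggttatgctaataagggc
Ifit1: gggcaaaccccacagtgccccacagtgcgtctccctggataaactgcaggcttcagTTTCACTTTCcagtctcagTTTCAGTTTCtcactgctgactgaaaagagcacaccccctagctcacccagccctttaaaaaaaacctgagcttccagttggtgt
Ifitm1: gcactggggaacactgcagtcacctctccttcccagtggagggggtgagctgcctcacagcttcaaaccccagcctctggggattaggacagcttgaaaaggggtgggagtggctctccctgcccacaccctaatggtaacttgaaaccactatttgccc

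The windows of Irgm2 and Igtp were equal at 107 of 130 bases (82.3%) at their best ungapped offset. In both, a GAS core is followed by an ISRE core. The GAS core begins 75 bases before the start in Irgm2 and 45 bases before it in Igtp. The window of Isg15 holds 3 overlapping ISRE cores, and those of Irgm1 and Bst2 hold 2 overlapping cores each. In Bst2 the GAS core also overlaps the ISRE core that begins 130 bases before the start. Ifit1 carries 2 separate ISRE cores on the other strand.

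A promoter window of 250 bases before to 50 bases after the start was given for 49 of the 65 members. Of these 49 genes, 24 (49.0%) held an ISRE core and 17 (34.7%) held a GAS core. Among the 11570 genes of the table with a window, 3.69% held an ISRE core and 8.33% held a GAS core. Counted by window, 42.1% of the 57 windows of the members and 3.44% of all 32851 held an ISRE core, and 29.8% and 8.30% held a GAS core. A match of letters is a description and not a site shown to be bound. Among the members with no window here were Ifi27l1, Ifi27l2a, Rtp4, Oas2, Mx1, Mx2, Iigp1, Gbp4, Gbp6, Gbp8, Gbp9, Oas1b, Usp18 and Ifi204.

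**Figure D1:**
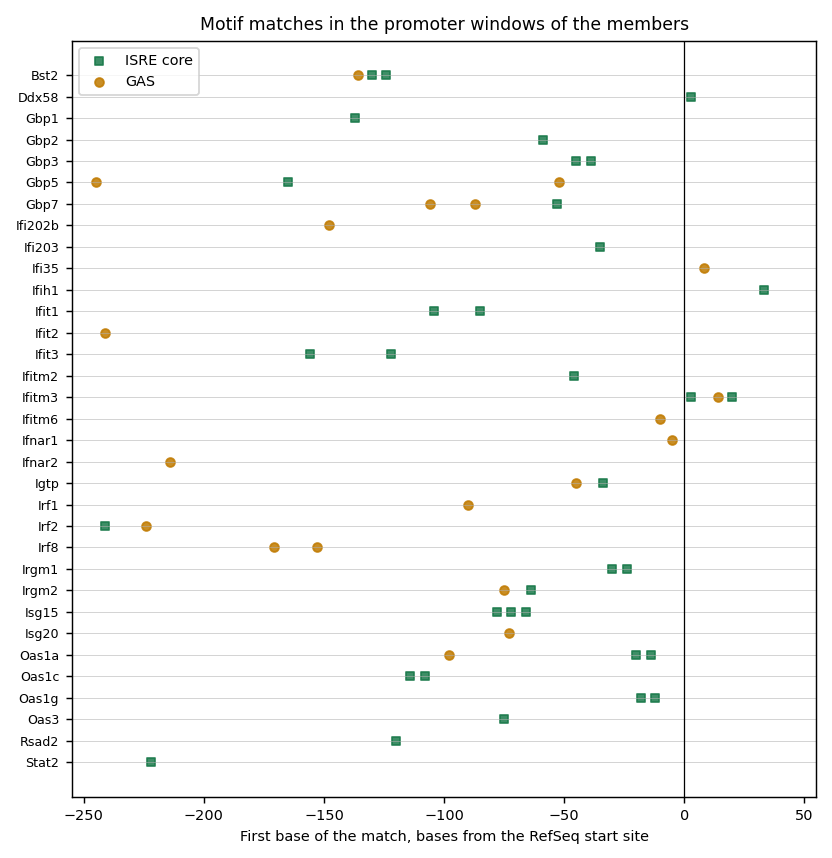
Position of each ISRE core (squares) and GAS core (circles) in bases from the RefSeq start site, one line for each member with at least 1 match in its window. Most matches begin before the start, and those of Ddx58, Ifih1, Ifitm3 and Ifi35 begin after it.

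A copy is one sequence tag assigned to a gene by the authors. The table held 4437506 copies in Dox+ and 4218459 in Dox-, 74.1% and 72.2% of the 5985925 and 5844314 clean tags that the deposited TPM values imply. Ratios were taken per clean tag, and their 95% intervals are exact Clopper-Pearson intervals that cover counting error only. Vegfa, the repressed gene, fell 1.93-fold (1.55 to 2.41), with 247 copies in Dox+ and 125 in Dox-. A gene was called when it had at least 200 copies over both libraries and changed at least 1.5-fold. The uterus is a mixture of cells, so that fewer cells of a type and less RNA per cell cannot be told apart. Beside the results stand these marker sums. The 8 epithelial markers went from 5323 to 7911 copies, with 3 called higher and 1 lower, and the 14 leukocyte markers from 978 to 1085. Only 4 leukocyte markers had at least 200 copies, and none of these was called. Of the 7 leukocyte markers with at least 20 but fewer than 200 copies, 4 had an interval above 1 and 1 below it. The 6 smooth muscle markers went from 27481 to 17347 copies with 3 called lower, and the 7 endothelial markers from 1178 to 739 with 2 called lower. Only 3 endothelial markers had at least 200 copies, and of the other 4 endothelial markers 3 had an interval below 1. The 7 stromal markers went from 24228 to 26111 copies, with 1 called higher and 3 lower. Col6a1 held most of these copies and rose from 13371 to 20233, while 5 of the 7 stromal markers had a ratio below 1. The 4 adipocyte markers went from 495 to 323 with 1 called lower. The 4 erythrocyte markers went from 66 to 208 and the 4 oviduct and ovary markers from 40 to 42. Within this last sum Ovgp1 went from 25 to 2 copies, Foxj1 from 3 to 25, Star from 12 to 13 and Inha from 0 to 2. The intervals of Ovgp1 and Foxj1 excluded 1, on opposite sides. No leukocyte, epithelial, smooth muscle, endothelial, stromal or adipocyte marker was at 0 in either library, and 1 erythrocyte marker and 1 oviduct and ovary marker were. The markers were summed over the genes in the table, and the part of cell composition in the results was not tested.

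The interferon genes did not move as 1 group. Of the 65 members 24 had at least 200 copies, 33 had at least 20 but fewer than 200 and 8 had fewer than 20. Among the 24, 4 rose, which were Ifitm1, Isg20l2, Ifi47 and Irgm2, and 4 fell, among them Ifi27l2a, Irf3 and Ifnar2. Of all 6547 genes with at least 200 copies 15.2% were called higher, 14.7% lower and 29.9% in either direction, so that the members' shares were near the background. The median log2 ratio of the 24, Dox- over Dox+, was 0.0037, and that of all 6547 genes was 0.035. All members together held 11237 copies in Dox+ and 12219 in Dox-, and without Ifitm1 9467 and 8575.

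**Figure D2:**
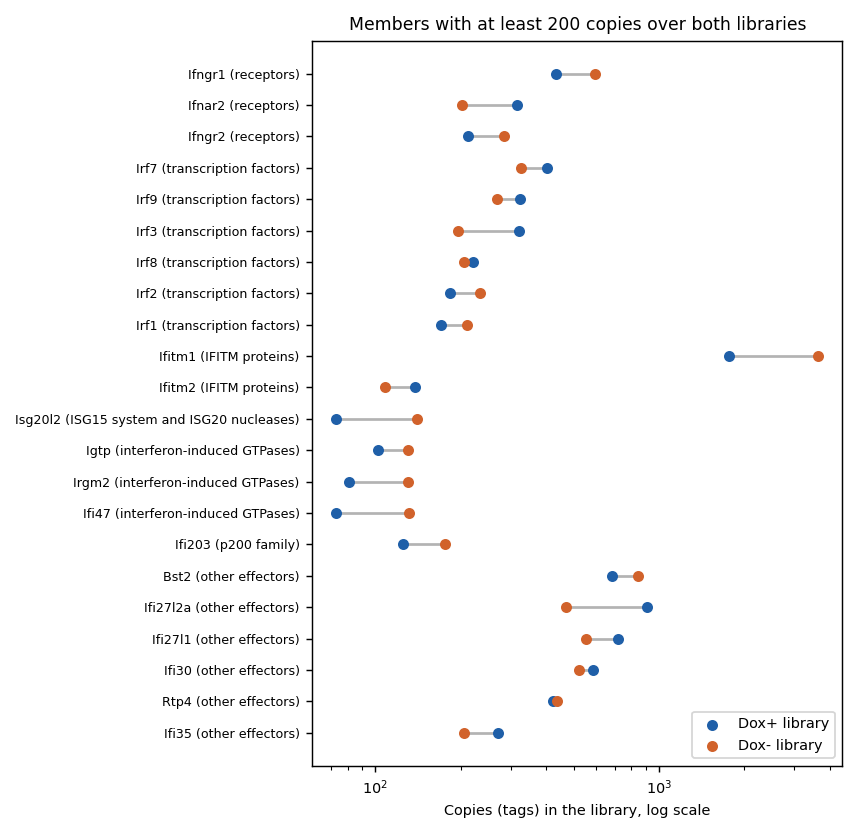
Copies in the Dox+ (blue) and Dox- (orange) library, on a log axis, of 22 of the 24 members with at least 200 copies, ordered by role. Ifitm1 stands to the right of the others, rising from 1770 to 3644, and Ifi27l2a shows the widest gap in the other direction, from 907 to 469.

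**Figure D3:**
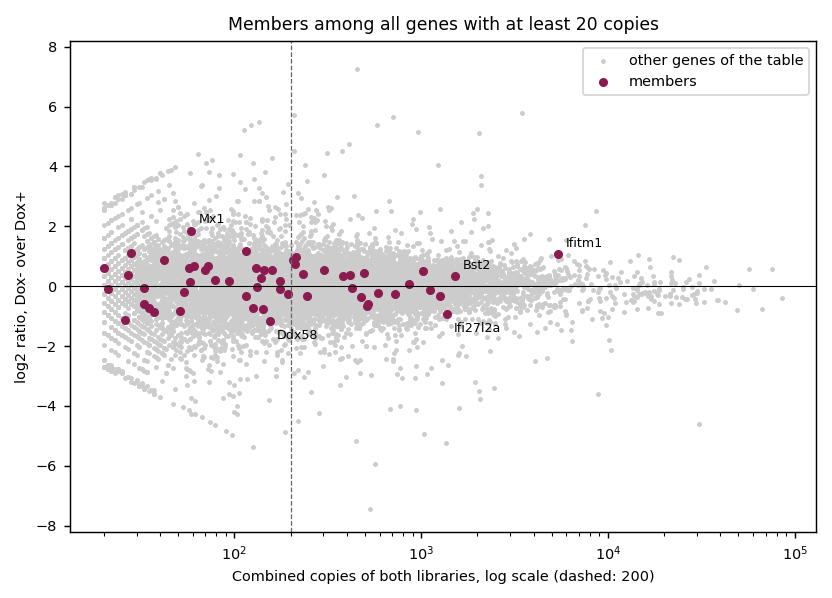
The log2 ratio, Dox- over Dox+, against the combined copies of both libraries on a log axis for genes with at least 20 copies, 55 of them members, with a count under 3 set to 3. The members (dark points) lie within the spread of the other genes (grey) and on both sides of 0.

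Of the 4 receptor chains Ifnar2 alone had a ratio below 1. Ifnar2, the chain of the type I receptor that binds the ligand tightly, had 315 copies in Dox+ and only 202 in Dox- and so fell 1.52-fold (1.27 to 1.83). This value lies at the edge of the call, and it was no longer called when libraries were scaled by the copies in the table. Ifnar1, its partner, had 64 and 75 copies, and the interval of its ratio included 1. Ifngr1, which binds interferon gamma, had 432 copies in Dox+ and 596 in Dox-, 1.41-fold higher (1.25 to 1.60). Ifngr2, its accessory chain, had 213 and 284 copies, 1.37-fold higher (1.14 to 1.64). Both gamma receptor chains were thus higher by more than counting error and below 1.5-fold.

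On NCBIM37, the assembly also called mm9, Ifnar2, Ifnar1 and Ifngr2 lie together with Il10rb on chromosome 16, between 91373028 and 91565414, all on the plus strand. Il10rb, a chain shared by the interleukin-10 and type III interferon receptors, had 261 copies in Dox+ and 190 in Dox-. Its annotated span (91406409 to 91426074) overlaps that of Ifnar2 (91373028 to 91419696) on the same strand, so that the copies of these genes are uncertain. Within this stretch the ratios of Ifnar2 and Il10rb were below 1 and those of Ifnar1 and Ifngr2 above it.

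Irf3 (chromosome 7, 52253018 to 52258218), the latent transcription factor that switches on interferon beta after viral sensing, fell from 320 to 196 copies, 1.59-fold (1.33 to 1.91).

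Irf7 and Irf9 stayed within 1.5-fold. Irf7, the amplifier of type I interferon production, had 402 copies in Dox+ and 327 in Dox-, 1.2-fold lower (1.03 to 1.39). Irf9, the DNA-binding partner of the STAT complex, had 323 and 268 copies, 1.18-fold lower (0.998 to 1.39). The counting interval of Irf7 excluded 1, and that of Irf9 just included it. Stat2, which joins IRF9 in that complex, had 68 and 65 copies.

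Irf1, an activator that interferon gamma induces, had 171 copies in Dox+ and 210 in Dox-, 1.26-fold higher (1.02 to 1.55). Irf2, which binds the same elements, had 183 and 234 copies, 1.31-fold higher (1.07 to 1.60). Irf8, a factor of myeloid cells, had 221 and 205 copies, 1.05-fold lower (0.866 to 1.28). Irf4, a lymphocyte factor, had 23 and 34 copies and Irf5, another factor of immune cells, 65 and 50. The intervals of Irf8, Irf4 and Irf5 included 1.

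**Figure D4:**
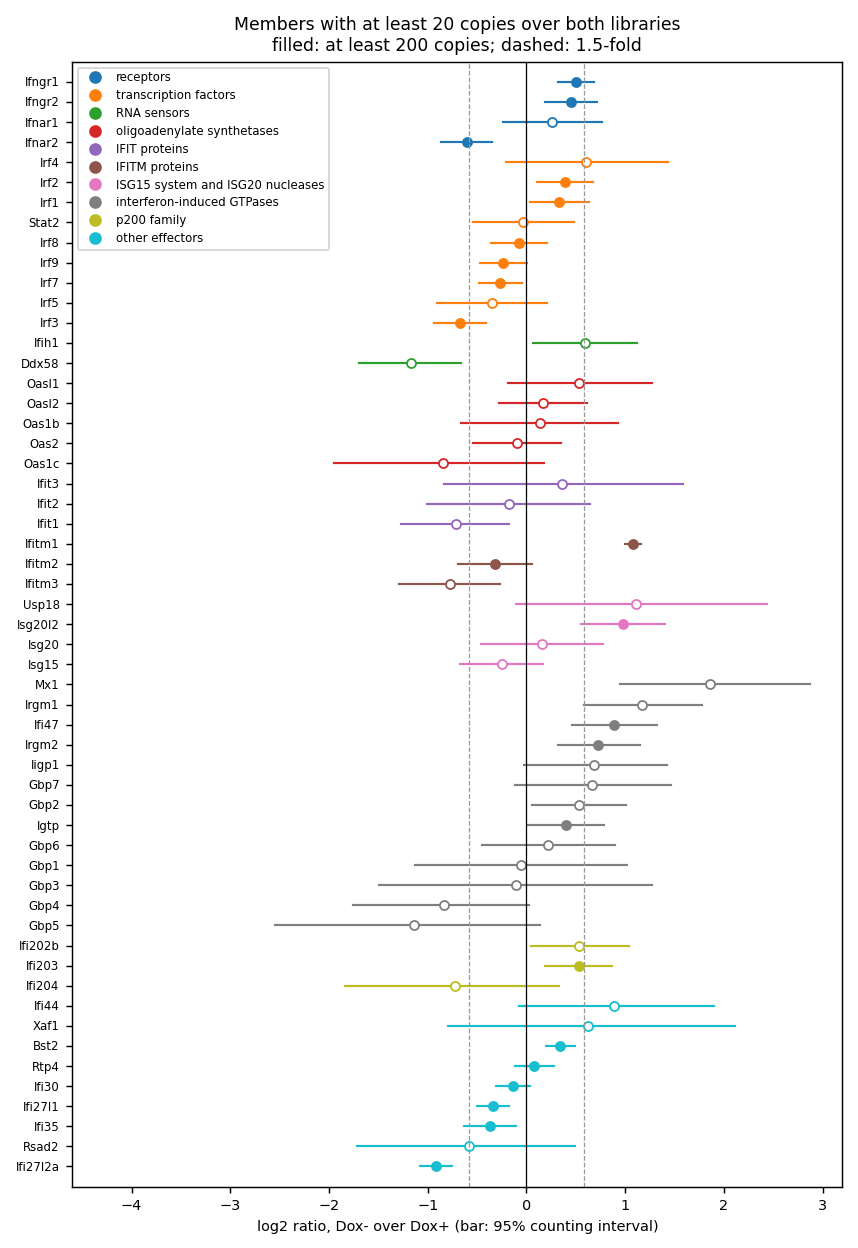
The log2 ratio, Dox- over Dox+, of 55 of the 57 members with at least 20 copies, by role, with 95% counting intervals as bars. Filled points have at least 200 copies, and dashed lines mark 1.5-fold. The ratios lie on both sides of 0 in each role.

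The largest number of copies belonged to Ifitm1 (chromosome 7, 148153120 to 148155724), which encodes a small membrane protein that restricts the entry of viruses. It rose from 1770 to 3644 copies, 2.11-fold (1.99 to 2.23). Neither Ifitm2 nor Ifitm3 in the same cluster shared this rise. Ifitm2 had 138 copies in Dox+ and 108 in Dox-, 1.25-fold lower (0.963 to 1.62). Ifitm3, the best known antiviral member of the family, had 91 and 52 copies, 1.71-fold lower (1.2 to 2.45). Ifitm5, which is known from bone, and Ifitm6 had 0 to 4 copies. The 5 genes lie within chromosome 7, 148134862 to 148202791, with Ifitm1 on the plus strand and the other 4 on the minus strand. The authors annotated unambiguous tags, and the copies of such close relatives are uncertain, as are those of the Oas1, Gbp and Ifi27-like genes.

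The interferon-induced GTPases contributed 2 of the 4 genes that rose. Many of these enzymes, though not the Mx proteins, bind to vacuoles that hold intracellular microbes. Only 3 genes of this group had at least 200 copies, and 15.2% of all genes with that many copies rose. Ifi47 (chromosome 11, 48890089 to 48910476) rose 1.85-fold (1.38 to 2.50), with 73 copies in Dox+ and 132 in Dox-. Irgm2 (chromosome 11, 58028530 to 58036282) rose 1.66-fold (1.25 to 2.21), going from 81 copies in Dox+ to 131 in Dox-. Both had only slightly more than 200 copies over the libraries, and their intervals are wide.

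The other immunity-related GTPases pointed the same way. Igtp, next to Irgm2, had 102 copies in Dox+ and 131 in Dox-, 1.32-fold higher (1.01 to 1.72). Irgm1, which regulates the other members of its family, had 36 and 79 copies, 2.25-fold higher (1.5 to 3.43). Iigp1 had 28 and 44 copies, with an interval that included 1. All 5 ratios of this family were above 1, and its copies summed to 320 in Dox+ and 517 in Dox-. Of the 57 members with at least 20 copies, 30 had a ratio above 1. The family was singled out from the GTPase list after its values were seen. Of the 14 leukocyte markers 9 had a ratio above 1, among them Ptprc with 49 copies in Dox+ and 130 in Dox- and Itgam with 45 and 97. Tyrobp with 211 and 158 and Fcer1g with 177 and 134 were among those below 1. Of the erythrocyte markers Hba-a1 had 26 copies in Dox+ and 114 in Dox-, Hba-a2 19 and 82, Alas2 21 and 9 and Hbb-b2 0 and 3. The part of leukocytes and of blood in the GTPase values was not tested.

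The guanylate-binding proteins, larger GTPases of the same defence, had ratios on both sides of 1. Gbp2 had 66 copies in Dox+ and 93 in Dox-, 1.44-fold higher (1.04 to 2.01), and its interval alone among the 9 Gbp genes excluded 1. Gbp7 had 24 and 37 copies, Gbp6 37 and 42, Gbp4 33 and 18, Gbp5 18 and 8, Gbp1 17 and 16 and Gbp3 11 and 10. Gbp8 and Gbp9 had 4 to 6 copies. Together the 9 genes had 217 copies in Dox+ and 232 in Dox-, with 3 ratios above 1 and 6 below. Mx1, a GTPase that blocks influenza viruses, had 13 and 46 copies, 3.62-fold higher (1.93 to 7.31), and Mx2 had 12 and 7. The authors' reference transcripts of both Mx genes are noncoding RefSeq entries.

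Isg15, Usp18, the Ifit genes and Rsad2 had fewer than 200 copies each over both libraries. Isg15, a ubiquitin-like protein that is conjugated to other proteins, had 106 copies in Dox+ and 87 in Dox-. Usp18, which removes ISG15 and dampens the receptor, had 9 and 19. Ifit1, which binds foreign RNA ends, had 79 and 47 copies, 1.64-fold lower (1.13 to 2.41). Its relatives Ifit2 and Ifit3 had 29 and 25, and 12 and 15. Rsad2, or viperin, had 20 and 13 copies. Of these genes only Ifit1 had an interval that excluded 1.

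The RNA sensors went opposite ways. Ddx58, or RIG-I, had 108 copies in Dox+ and 47 in Dox-, 2.24-fold lower (1.58 to 3.23). Ifih1, or MDA5, had 53 and 78 copies, 1.51-fold higher (1.05 to 2.18). Both had fewer than 200 copies over the libraries and were not called. The intervals of the 2 genes, which sense different forms of viral RNA, lie on either side of 1.

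Oligoadenylate synthetases make a messenger that activates an RNA-degrading enzyme. Oas2 had 92 copies in Dox+ and 84 in Dox-, Oasl2 84 and 92, Oasl1 29 and 41, Oas1b 28 and 30, and Oas1c 24 and 13. None of these 5 intervals excluded 1. Oas1a had no copy in Dox+, after the removal of single tags from both libraries, and 14 in Dox-. Oas3 had 2 and 10 copies and Oas1g 5 and 3. The Oas1, Oas2 and Oas3 genes share chromosome 5, 121180342 to 121357536, and held 151 and 154 copies in sum.

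Isg20l2 (chromosome 3, 87734236 to 87744608) rose 1.96-fold (1.47 to 2.64), its copies numbering 73 in Dox+ and 140 in Dox-. Although its name places it here, it encodes a nucleolar exonuclease of ribosomal RNA maturation. Isg20, the interferon-induced nuclease after which it is named, had 45 and 49 copies. The p200 family of DNA-binding proteins was higher in 2 of its 3 members. Ifi203 had 125 copies in Dox+ and 176 in Dox-, 1.44-fold higher (1.14 to 1.83), and Ifi202b had 60 and 85, 1.45-fold higher (1.03 to 2.05). Ifi204 had 22 and 13 copies with an interval that included 1.

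Among the other effectors Ifi27l2a (chromosome 12, 104680377 to 104681890), a small hydrophobic protein strongly induced by type I interferon, fell from 907 to 469 copies, 1.89-fold (1.69 to 2.12). Ifi27l1, its neighbour, had 716 and 553 copies, 1.26-fold lower (1.13 to 1.42). Bst2, or tetherin, which holds budding viruses at the cell surface, had 683 and 845 copies, 1.27-fold higher (1.14 to 1.40). The 3 intervals excluded 1, and Bst2 differed in direction from the Ifi27-like pair.

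Ifi30, a thiol reductase of the lysosome used in antigen processing, had 588 copies in Dox+ and 524 in Dox-, 1.10-fold lower (0.972 to 1.23). Rtp4, a chaperone of membrane receptors, had 425 and 439 copies, 1.06-fold higher (0.924 to 1.21). Ifi35 had 271 and 205 copies, 1.29-fold lower (1.07 to 1.56). Ifi44 had 15 and 27 copies and Xaf1, an apoptosis regulator, 8 and 12. Of these 5 genes only Ifi35 had an interval that excluded 1.

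Of the 33 members with at least 20 but fewer than 200 copies, 5 had an interval above 1 and 3 below it. Among the 5532 genes of the table in this range, 21.1% had an interval above 1 and 20% below it, so that neither share of the members exceeded the background. Of the 16 members with at least 200 copies that were not called, 11 had an interval that excluded 1, and 2381 of the 4592 such genes of the table did. These intervals hold no variation between pools.

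Members with an ISRE core were found on both sides of 1, as were those without. Only members with a promoter window are counted here, so that Ifi27l2a, which fell, is in neither set. Of the 21 members with an ISRE core and at least 20 copies, 10 had a ratio above 1, and their median log2 ratio was -0.031. Of the 23 members without one, 14 had a ratio above 1, and the median was 0.26. Among the members with at least 200 copies, 1 of 6 with an ISRE core was called higher and none lower. Of 13 without one 3 were called higher and 2 lower. In these smaller sets the medians stood in the reverse order, 0.39 with an ISRE core and -0.074 without. With 15.2% of all genes called higher and 14.7% lower, no difference between the sets is read from these counts.

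The wider pathway was described with a list of 112 symbols of ligands, kinases, regulators, sensors and other induced genes that are not members, of which 92 had a row in the table. Of the 13 ligand symbols only Ifne had a row, with 2 copies in each library. It encodes interferon epsilon, a type I interferon known from the epithelium of the female reproductive tract. Of the 46 genes of the list with at least 200 copies, 8 rose and 3 fell, beside 15.2% and 14.7% of all genes with at least 200 copies, so that the share that rose was near the background. Their median log2 ratio was 0.026.

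Jak1, Jak2 and Il10rb, the genes of the receptor chains and kinases with at least 200 copies, stayed within 1.5-fold. Jak2, a kinase of the gamma receptor, had 816 copies in Dox+ and 798 in Dox-, with a ratio whose interval ran from 0.907 to 1.11. Jak1, which serves all interferon receptors, had 617 and 485 copies, 1.24-fold lower (1.10 to 1.40).

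Among the negative regulators, Ptpn2, a phosphatase of Janus kinases, rose from 96 to 172 copies, 1.84-fold (1.42 to 2.38). Socs3 and Socs2, feedback inhibitors of cytokine receptors, rose from 111 to 180 and from 202 to 315 copies, 1.66-fold and 1.60-fold. Pias3, a SUMO ligase that restrains STAT3, fell from 183 to 97 copies, 1.84-fold (1.43 to 2.38). Of the 7 negative regulators with at least 200 copies, 3 rose, 1 fell and 3 stayed within 1.5-fold, where 15.2% of all genes rose and 14.7% fell. Those within 1.5-fold included Ptpn11 with 451 and 557 copies and Ptpn1 with 221 and 249.

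In the group of sensing and induction Myd88, the adaptor of Toll-like and interleukin-1 receptors, fell from 769 to 284 copies, 2.64-fold (2.30 to 3.04). This was the largest fold change among the 46 genes. Tank, a scaffold of the kinase TBK1, rose from 91 to 183 copies, 2.06-fold (1.59 to 2.68). Tmem173, or STING, the adaptor of cytosolic DNA sensing, rose from 126 to 222 copies, 1.80-fold (1.44 to 2.26). The other 8 genes of this group with at least 200 copies were within 1.5-fold. Mavs, the adaptor of RIG-I and MDA5, had 342 and 413 copies, and Irf2bp2, a corepressor that binds IRF2, had 318 and 442.

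Of 25 other induced genes with at least 200 copies, 3 rose and 1 fell, beside 15.2% and 14.7% of all genes with that many copies. B2m, the light chain of class I MHC molecules, rose from 6681 to 10158 copies, 1.56-fold (1.51 to 1.61). H2-D1, a class I heavy chain, rose from 349 to 649 copies, 1.90-fold (1.67 to 2.18), while H2-K1, another heavy chain, had 6182 and 4539, 1.33-fold lower (1.28 to 1.38). Epsti1 rose from 96 to 156 copies, 1.66-fold (1.28 to 2.17). Plscr1, a phospholipid scramblase, fell from 316 to 193 copies, 1.60-fold (1.33 to 1.92). Lgals3bp had 2063 and 1844 copies. Class I heavy chains are alike in sequence, and their copies are uncertain for that reason.

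**Figure D5:**
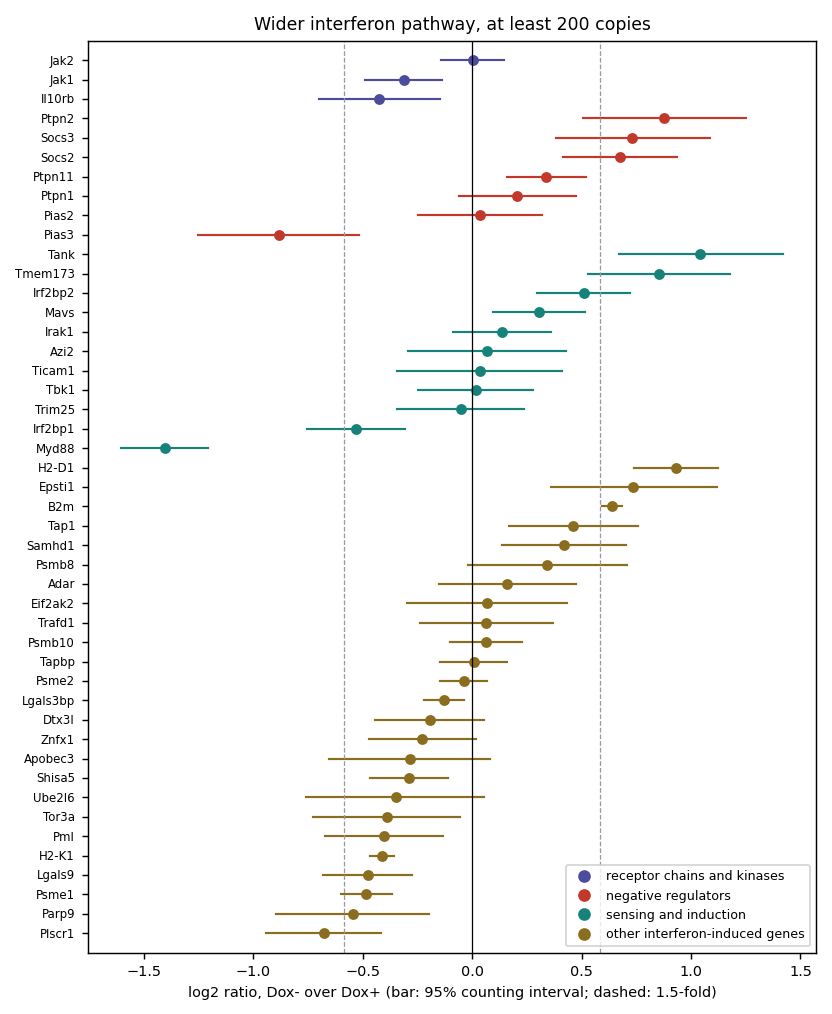
The log2 ratio, Dox- over Dox+, of the 46 genes of the wider interferon pathway with at least 200 copies, grouped by function, with 95% counting intervals as bars and dashed lines at 1.5-fold. Tank and H2-D1 lie farthest to the right and Myd88 farthest to the left.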

How the data were processed

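RNA of 3 uteri per condition was pooled into 1 library each (Dox+ and Dox-) and profiled by digital gene expression. Tags that were adaptor only, of low quality or single had been dropped, and the authors deposited, per gene, the count of unambiguous tags found on mm9 reference mRNAs. The aligner is not given in the sources used here. The labels mention fragmentation of mRNA, and the counts were read as tags. The deposited TPM is the count per 1000000 clean tags without a length correction, as computed by the authors, with 0.01 at a count of 0. This relation held within rounding for all 27998 TPM values above that minimum and gave the number of clean tags. Columns of the authors' own ratios, P-values and FDR were not used.

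The counts were compared per clean tag. Counts below 3 were raised to 3. Intervals are exact Clopper-Pearson intervals at 95%. With 1 library per condition the quasi-likelihood test of edgeR had no spread to estimate and was not run. The rule named every member, with ratios from 200 combined copies or where the interval excluded 1, and the wider list by its calls and the genes with the most copies. The members and lists were chosen with earlier results of these data known. Alternatives were other filters, scalings and thresholds, the Audic-Claverie test and the exact test of edgeR 4.0.16 with assumed variation, and the size factors of DESeq2 1.42.0. Gene positions are from the GENCODE annotation of NCBIM37, and promoters, matched by gene ID, from RefSeq on GRCm38.p6. Python 3.11.15, scipy 1.17.1 and R 4.3.3 were used. Antisense tags were not analysed here, and some members are counted but not reported here.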

Additional observations from a re-analysis of the deposited data

How the results depend on the processing

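No paired analysis was possible because each condition had 1 library, and for the same reason no replicate could be left out. The ratios of the 24 members with at least 200 copies stayed within their counting intervals under 3 other scalings and a pseudocount of 1, in all 96 values. Scaling by TMM, by the median of ratios or by the copies in the table kept the 4 higher calls of the members, and scaling by the copies in the table lost Ifnar2 of the 4 lower ones. The Audic-Claverie FDR below 0.05 and a coefficient of variation of 0.1 between pools in the exact test of edgeR kept all 8. With assumed coefficients of 0.2 and 0.4, 0 members were called higher and 0 lower, and of the wider list 0 higher at both, 1 lower (Myd88) at 0.2 and 0 lower at 0.4. Of all genes with at least 200 copies, 2.11% were called higher and 2.46% lower at 0.2, and 0.244% each at 0.4. At a fold of 2, 1 member was higher (Ifitm1) and 1 lower, and 1 gene of the wider list was higher (Tank) and 1 lower (Myd88). At this fold 4.61% of all genes with at least 200 copies were higher and 5.62% lower. An absolute log2 ratio above 0.5 gave 5 lower genes of the wider list, in place of 3, where 17.8% of all genes were lower. From 100 combined copies 6 members were higher and 7 lower, and 14 genes of the wider list were higher and 7 lower. From 20 combined copies 13 members were higher and 12 lower, and 19 genes of the wider list were higher and 9 lower. The added genes have few copies, and the shares of all genes called at these lower filters were not counted. How much pools vary is not known from 1 pool each, and counts under 200 limit what can be told of most interferon-induced members.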

Other observations

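Some genes of the wider interferon list with fewer than 200 copies had ratios farther from 1 than the members that were called. Dhx58, or LGP2, a regulator of the RNA sensors, had 14 copies in Dox+ and 52 in Dox-, 3.80-fold higher (95% interval 2.08 to 7.43). Socs1, the main feedback inhibitor of interferon signaling, had 33 and 87 copies, 2.70-fold higher (1.79 to 4.16). Samd9l, an interferon-induced regulator of translation, had 52 and 136 copies, 2.68-fold higher (1.93 to 3.76). Trim21, a cytosolic antibody receptor, had 90 and 22 copies, 3.99-fold lower (2.48 to 6.69). Of the 37 genes of the list with at least 20 but fewer than 200 copies, 10 had an interval above 1 and 5 below it, beside 21.1% and 20% of all genes in this range. These 4 genes were chosen after their values were seen, and with 1 library per condition their differences have no replicate check.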
